A study of Mus musculus with 3 samples.

Results

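Single-cell transcriptomes of CD45+ enriched mouse dorsal skin were searched for monocytes, and 198 of 16604 cells met the definition used here. A cell had to hold at least 1 UMI (unique molecular identifier, a counted RNA molecule) of at least 3 of the 6 monocyte genes Ly6c2, Ccr2, Plac8, Vcan, Chil3 and Ifitm6, and at least 1 UMI of Lyz2. It could hold at most 2 UMIs of the macrophage genes C1qa, C1qb and C1qc together, at most 1 of the neutrophil genes Csf3r, Cxcr2 and Retnlg, and none of Cd3e, Cd3d or Siglech. There were 46 such cells among 5309 in WT_Ctrl, 117 among 5225 in WT_UV and 35 among 6070 in RP_UV.

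WT_Ctrl was wild-type skin without irradiation, WT_UV was wild-type skin after 3 exposures to ultraviolet B (UVB) light given once every 2 days, and RP_UV was skin of Rosa26-rtTA; Tre-Ptgs2 mice after the same exposures. All were C57Bl/6 males of 8 weeks with hair follicles in the resting phase. In the RP genotype doxycycline turns on a rat Ptgs2 copy in cells throughout the body, so it is not a model of monocytes alone, and whether reads of the rat copy were counted as mouse Ptgs2 cannot be told apart from expression of the mouse gene. Each group had 1 library, so no difference had a replicate check, no test or p-value was computed, and every interval covers counting error only. The run names in the labels differ for WT_UV, while WT_Ctrl and RP_UV came from 1 flow cell, and in any contrast that uses WT_UV the sequencing run and the group cannot be told apart. The contrast of RP_UV with WT_Ctrl is free of that difference but joins genotype and UVB.

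Classical monocytes leave the bone marrow through the chemokine receptor Ccr2, carry Ly6C on their surface in mice and enter skin from the blood. In tissue they lose monocyte genes and turn on genes of macrophages or of dendritic cells, among them the MHC class II genes that present peptides to CD4 T cells. Monocytes that enter inflamed skin are known as a source of interleukin-1 beta and of chemokines that draw in further myeloid cells.

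The libraries held 34985549, 82722013 and 37689836 UMIs in WT_Ctrl, WT_UV and RP_UV, with a median of 4246, 10557 and 3774 UMIs per retained cell. The 198 cells held 242049, 1428272 and 191231 UMIs in the same order, which set the lowest level that 3 counts per library could show at 12.4, 2.1 and 15.7 CPM (a gene's share of all UMIs of these cells in a library, scaled so that all genes add up to 1e+06). Pairs of libraries shared 8 to 11 cell barcodes, and no barcode belonged to 2 of the 198 cells. Doublets were kept in the values below.

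The label of a Ly6c2-positive cell held for 105 of the 198 cells, and they are therefore called monocyte-rule cells. A Ly6c2 UMI was found in 31 of 46 cells of WT_Ctrl, 56 of 117 of WT_UV and 18 of 35 of RP_UV. Ly6c1, a near-identical neighbour of Ly6c2 that can share reads with it, had 0, 2 and 11 UMIs in the 3 libraries. Ccr2 had a UMI in 189 cells, Plac8, a small cysteine-rich protein of monocytes, in 157, the matrix proteoglycan Vcan in 109, the chitinase-like Chil3 in 110 and Ifitm6 in 82.

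The genes of the definition were not evenly used across libraries, and since they chose the cells their levels are a description. For Plac8 the levels were 2322 CPM in WT_Ctrl, 671 CPM in WT_UV and 382 CPM in RP_UV, and for Chil3 they were 322, 468 and 2233 CPM. Vcan was lowest in WT_Ctrl with 82.6 CPM against 319 and 905 CPM. Plac8 was thus the leading monocyte gene of the unirradiated cells, while Chil3 and Vcan were highest in RP_UV. Exactly 3 of the 6 genes were detected in 22, 57 and 16 cells, just inside the limit, and 93, 135 and 61 cells that met every other condition had 2 and stayed outside.

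**Figure D1:**
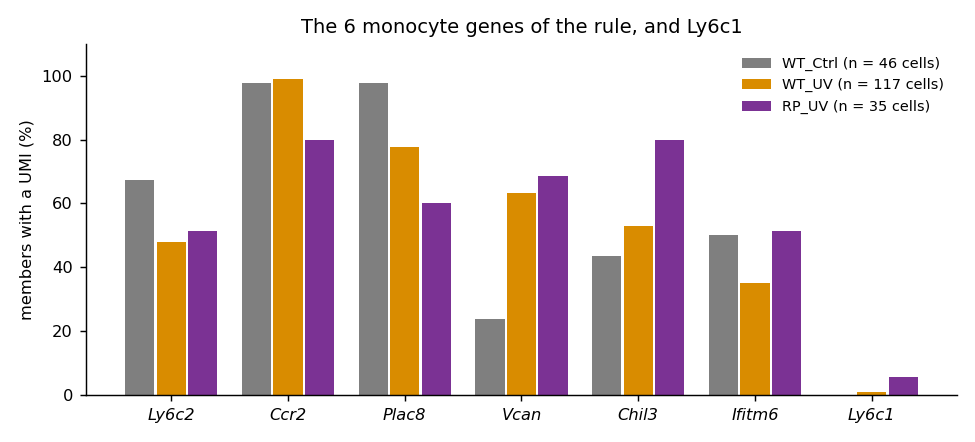
Percentage of monocyte-rule cells with a UMI of each of the 6 monocyte genes of the definition and of Ly6c1, for WT_Ctrl (46 cells), WT_UV (117) and RP_UV (35). Ly6c2 was detected in 31, 56 and 18 of these cells, so none of the 3 libraries consisted of Ly6c2-positive cells alone.

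A wider list of 14 classical monocyte genes that the definition did not use was present in each library. All 14 had UMIs in WT_Ctrl, WT_UV and RP_UV, and their summed level was 6379, 7452 and 6850 CPM. Genes of other cells were also found. A UMI of a dendritic cell, NK cell or innate lymphoid cell list gene was held by 17 of the 46 WT_Ctrl cells (37%), by 52 of the 117 WT_UV cells (44.4%) and by 9 of the 35 RP_UV cells (25.7%). UMIs of at least 2 of the 10 neutrophil list genes were held by 1, 2 and 14 cells, and the summed neutrophil list stood at 53.7, 97.3 and 1109 CPM, with Ly6g at 0 in all 3 libraries. The summed keratinocyte list stood at 773, 1095 and 6735 CPM, of which 1 cell held 86.1%, 85.4% and 81.4%. The part of these other-cell genes in the results that follow was not tested except where values without those cells are given.

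The share of monocyte-rule cells was higher in WT_UV than in either other library. They made up 0.866% of the retained WT_Ctrl cells (exact 95% interval 0.635 to 1.15), 2.24% of those of WT_UV (1.86 to 2.68) and 0.577% of those of RP_UV (0.402 to 0.801). The ratio was 2.58 for WT_UV over WT_Ctrl (1.84 to 3.63) and 0.258 for RP_UV over WT_UV (0.177 to 0.375). For RP_UV over WT_Ctrl the ratio was 0.665 with an interval from 0.429 to 1.03, so these libraries were not distinguishable at this depth over all retained cells. Over myeloid cells that ratio was 0.602 (0.389 to 0.931). The bead enrichment and the other cells in each library enter the denominator: with cells that had a UMI of Ptprc, the CD45 gene, the shares were 1.64%, 2.66% and 1.1%.

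The order of RP_UV and WT_Ctrl depended on the limit on complement C1q, which marks macrophages. A further 12, 196 and 109 cells met all other conditions but held more than 2 C1q UMIs. With no limit on C1q the shares were 1.09%, 5.99% and 2.37%, and the ratio of RP_UV over WT_Ctrl became 2.17 (1.6 to 2.94). Without the cells that held UMIs of at least 2 neutrophil genes the same ratio was 0.408 (0.243 to 0.684), with 21 cells left in RP_UV. Both alternatives were chosen after the data had been seen. With each cell thinned to 2000 UMIs before the definition was applied, 30, 79 and 22 cells were left and the ratios were 2.42, 0.309 and 0.747.

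**Figure D2:**
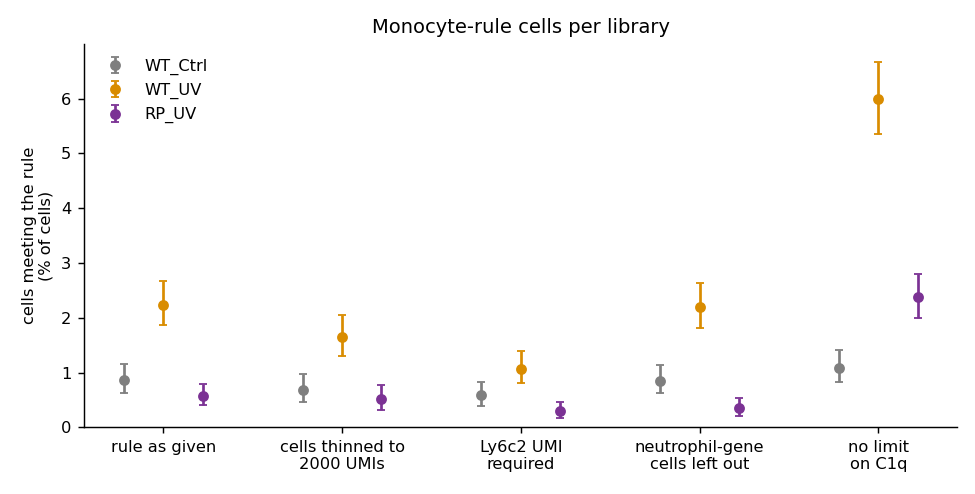
Monocyte-rule cells as a percentage of cells in WT_Ctrl, WT_UV and RP_UV with the definition as given, in cells thinned to 2000 UMIs, with Ly6c2 required, without cells that hold neutrophil genes and with no limit on C1q, with exact 95% binomial intervals. WT_UV is highest under each, while RP_UV lies below WT_Ctrl at 0.577% against 0.866% with the C1q limit and above it at 2.37% against 1.09% without it.

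The MHC class II genes were lower in RP_UV than in both wild-type libraries. H2-Aa, the alpha chain of the class II molecule I-A, stood at 5276 CPM in WT_Ctrl, 6329 in WT_UV and 1626 in RP_UV. It was 3.89 times lower in RP_UV than in WT_UV (95% counting interval 3.48 to 4.37) and 3.24 times lower than in WT_Ctrl (2.86 to 3.68). Between the wild-type libraries H2-Aa differed 1.2-fold.

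All 7 class II genes of the list were at least 2 times lower in RP_UV than in WT_UV and than in WT_Ctrl, and none passed 2-fold between WT_UV and WT_Ctrl. Among all 2821 genes compared, 11.2% passed 2-fold between WT_UV and WT_Ctrl, 8.33% were at least 2 times lower in RP_UV than in WT_UV and 10.1% lower than in WT_Ctrl. The median log2 fold of the 7 genes was -1.82 for RP_UV over WT_UV, -1.56 for RP_UV over WT_Ctrl and 0.30 for WT_UV over WT_Ctrl, beside 0.03, 0.02 and 0.00 for all genes. H2-Eb1, a beta chain, was 3.66 times lower in RP_UV than in WT_UV, and H2-DMb1, of the H2-DM molecule that loads peptides, 3.55 times. Cd74, the invariant chain that escorts class II molecules, stood at 11915, 14970 and 4785 CPM and was 3.13 times lower in RP_UV than in WT_UV. Ciita, the transactivator that switches on class II genes, was found in 25 of 46 cells of WT_Ctrl, 77 of 117 of WT_UV and 1 of 35 of RP_UV, where it had 2 UMIs, 16.8 times lower than in WT_UV (4.6 to 140).

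The remaining H2-Aa of RP_UV lay in a few cells. The median cell held 4095 CPM of H2-Aa in WT_Ctrl, 6473 in WT_UV and 0 in RP_UV, and 5 cells of RP_UV held 98.1% of its H2-Aa UMIs. Of the 8 cells with an H2-Aa UMI in RP_UV, 5 also had a dendritic cell, NK cell or innate lymphoid cell gene. In the cells with a Ly6c2 UMI H2-Aa stood at 4847, 6241 and 57.9 CPM, and in those without one at 6123, 6407 and 3482 CPM. In the 29, 64 and 16 cells with neither those genes nor a pair of neutrophil genes, H2-Aa stood at 4831, 5459 and 11.8 CPM and Cd74 at 11153, 12603 and 259 CPM. The difference was therefore larger without the cells that carried genes of other types.

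With every cell thinned to 2000 UMIs, H2-Aa was detected in 77.3% of the WT_Ctrl cells, 87.1% of the WT_UV cells and 19.4% of the RP_UV cells, against 82.6%, 90.6% and 22.9% unthinned. T cells, which should lack the gene, had it in 36.8%, 43.1% and 28.6% at the same thinning. The median depth before thinning was 4576, 10734 and 4978 UMIs in monocyte-rule cells and 2736, 7672 and 3234 in T cells. The RP_UV share was not above that of T cells of the same library, whereas both wild-type shares were. Apart from the 6 RP_UV cells with over 1000 CPM of H2-Aa, of which the highest held 17558 CPM, detection of this gene in RP_UV is not read as expression.

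RefSeq promoters of class II genes are shown because these genes were lower together, and the capitals mark the letters CTGATTGG, the core of the Y box known from class II promoters. The 3 windows are the 250 bases before the start of H2-Aa (chr17:34287824-34288073, minus strand), H2-Eb1 (chr17:34305617-34305866, plus strand) and H2-DMb1 (chr17:34152941-34153190, plus strand) in build GRCm38.p6.
H2-Aa: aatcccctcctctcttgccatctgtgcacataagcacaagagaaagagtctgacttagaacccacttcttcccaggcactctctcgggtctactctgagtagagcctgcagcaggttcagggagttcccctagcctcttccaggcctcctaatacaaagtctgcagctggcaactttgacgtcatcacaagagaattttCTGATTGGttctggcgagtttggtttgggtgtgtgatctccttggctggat
H2-Eb1: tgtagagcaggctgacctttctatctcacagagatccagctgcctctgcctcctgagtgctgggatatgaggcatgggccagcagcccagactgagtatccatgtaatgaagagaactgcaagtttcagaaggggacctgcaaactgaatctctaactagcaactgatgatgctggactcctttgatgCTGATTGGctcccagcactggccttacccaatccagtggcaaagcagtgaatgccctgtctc
H2-DMb1: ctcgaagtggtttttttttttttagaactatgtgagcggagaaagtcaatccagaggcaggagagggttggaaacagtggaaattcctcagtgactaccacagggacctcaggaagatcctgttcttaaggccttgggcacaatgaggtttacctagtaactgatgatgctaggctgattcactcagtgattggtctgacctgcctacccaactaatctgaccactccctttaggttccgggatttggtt
On either strand CTGATTGG occurred in 1258 of 32851 promoter windows of that length (3.83%). It was found in 2 of the 4 class II genes with a window, 51 bases before the start in H2-Aa and 62 bases in H2-Eb1, and H2-DMb1 held no match to these letters. A match describes letters and is neither a binding site nor a cause.

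Part of the transcription factor genes of monocyte fate were lower as well, and so were interferon-stimulated genes. Irf8, a factor that monocytes and dendritic cells need, stood at 331 CPM in WT_Ctrl, 139 in WT_UV and 5.23 in RP_UV, where 1 cell held its single UMI. The ratio put Irf8 26.6 times lower in RP_UV than in WT_UV (4.73 to 1058) and 2.37 times lower in WT_UV than in WT_Ctrl (1.81 to 3.09). Batf3, a partner of Irf8 in dendritic cells, stood at 95, 59.5 and 15.7 CPM, and Cebpa, a myeloid lineage factor, at 107, 73.5 and 36.6 CPM. Of 12 transcription factor genes compared, 1 was at least 2-fold higher and 2 lower in WT_UV than in WT_Ctrl, beside 7.94% and 3.3% of all genes. For RP_UV over WT_UV none was higher and 3 were lower, beside 6.35% and 8.33%. For RP_UV over WT_Ctrl 3 were higher and 3 lower, beside 11.6% and 10.1%. The list medians of log2 fold were 0.22, -0.38 and -0.21, so the list as a whole was mixed.

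Gbp2, an interferon-induced GTPase, stood at 260, 45.5 and 10.5 CPM and was 5.72 times lower in WT_UV than in WT_Ctrl (3.98 to 8.22), while its log2 fold for RP_UV over WT_UV was 0.16 when Chil3 and Ifitm6 were not used. Ifi47, a further interferon-induced GTPase, stood at 128, 51.1 and 20.9 CPM. Both genes were highest in WT_Ctrl and lowest in RP_UV. Of the 16 interferon-stimulated genes listed 7 were compared, and 4 were at least 2 times lower in WT_UV than in WT_Ctrl, 4 lower in RP_UV than in WT_UV and 5 lower in RP_UV than in WT_Ctrl, beside 3.3%, 8.33% and 10.1% of all genes, with none higher in any of the 3. The median log2 fold of the 7 genes was -1.14, -1.25 and -1.79. The middle value depended on the definition of the cells: it was 0.00 with no limit on C1q and 0.07 when Chil3 and Ifitm6 were not used.

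Several chemokine genes were at least 2-fold higher in the irradiated libraries, and a few were lower. Cxcl2, which attracts neutrophils, stood at 99.2 CPM in WT_Ctrl, 942 in WT_UV and 2076 in RP_UV and had a UMI in 5 of 46, 43 of 117 and 25 of 35 cells. It was 9.5-fold higher in WT_UV than in WT_Ctrl (6.36 to 14.9) and 2.2-fold higher in RP_UV than in WT_UV (1.96 to 2.47). Ccl2, the ligand of Ccr2, stood at 33.1, 116 and 392 CPM, and RP_UV was 3.39-fold over WT_UV (2.55 to 4.49). Cxcl1, a further neutrophil attractant, stood at 8.26, 32.9 and 141 CPM, with 48.1% of the RP_UV UMIs in 1 cell, and its log2 fold for RP_UV over WT_UV was -0.84 when cells were thinned to 2000 UMIs.

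Of 12 chemokine genes compared of 18 listed, 7 were at least 2-fold higher and 1 lower in WT_UV than in WT_Ctrl, 7 higher and 1 lower in RP_UV than in WT_UV, and 9 higher and 2 lower in RP_UV than in WT_Ctrl. Of all genes compared, 7.94% were higher in WT_UV than in WT_Ctrl, 6.35% in RP_UV than in WT_UV and 11.6% in RP_UV than in WT_Ctrl. The list medians of log2 fold were 1.61, 1.35 and 2.99. Ccl12, a further ligand of Ccr2, had no UMI in WT_Ctrl and stood at 7.7 and 152 CPM in WT_UV and RP_UV, at least 12.2-fold higher in RP_UV than the floor of 3 counts per library in WT_Ctrl. The WT_UV level of Ccl12 lay below that floor, and with this gene at its bound the median for WT_UV over WT_Ctrl was 0.64. The 3 genes Ccl6, Ccl7 and Ccl9, named after their values had been seen, stood at 773, 421 and 1757 CPM, at 12.4, 37.8 and 204 CPM and at 331, 278 and 826 CPM. Ccl6 and Ccl9 were therefore lowest in WT_UV, unlike Cxcl2, Ccl2 and Cxcl1. Cxcl10 was not read as a property of the group, since 1 cell held 66.7% of its UMIs in WT_UV and 92.3% in RP_UV.

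The promoters of the neutrophil attractants Cxcl1 and Cxcl2, which both stood highest in RP_UV, are shown with letters of the type bound by NF-kB in capitals (GGG, any 2 bases and TTTCC, or the reverse complement of these 10 bases). The windows are the 250 bases before the start of Cxcl1 (chr5:90890995-90891244, plus strand) and of Cxcl2 (chr5:90903649-90903898, plus strand), from RefSeq in build GRCm38.p6.
Cxcl1: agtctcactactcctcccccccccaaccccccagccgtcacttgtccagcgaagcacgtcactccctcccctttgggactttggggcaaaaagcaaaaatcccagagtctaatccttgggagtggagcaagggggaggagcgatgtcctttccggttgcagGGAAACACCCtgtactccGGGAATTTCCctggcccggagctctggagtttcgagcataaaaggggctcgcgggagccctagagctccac
Cxcl2: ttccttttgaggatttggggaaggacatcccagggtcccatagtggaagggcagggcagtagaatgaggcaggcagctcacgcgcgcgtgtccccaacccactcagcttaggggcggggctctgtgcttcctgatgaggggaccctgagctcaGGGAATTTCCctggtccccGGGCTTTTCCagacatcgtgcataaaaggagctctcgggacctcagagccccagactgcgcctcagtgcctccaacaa
These letters occurred on either strand in 464 of 32851 windows (1.41%), and in 4 of the 12 chemokine genes with a window. They began 89 and 71 bases before the start of Cxcl1 and 97 and 78 bases before that of Cxcl2, where the capitals of a gene do not overlap. The match is a description of the sequence only.

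Cytokine genes pointed the same way for 3 members of the list. Il1b, the gene of interleukin-1 beta, stood at 438 CPM in WT_Ctrl, 1346 in WT_UV and 3070 in RP_UV, with UMIs in 17 of 46, 88 of 117 and 28 of 35 cells. It was 3.07-fold higher in WT_UV than in WT_Ctrl (2.53 to 3.77) and 2.28-fold higher in RP_UV than in WT_UV (2.08 to 2.5). Osm, encoding oncostatin M, stood at 4.13, 74.2 and 173 CPM, with 1 UMI in WT_Ctrl, and its log2 fold for RP_UV over WT_UV was -0.19 with no limit on C1q. Tnf did not follow this order, at 86.8, 139 and 115 CPM, and RP_UV was 1.33-fold over WT_Ctrl with an interval from 0.696 to 2.53. Tgfb1, whose product restrains inflammation, was highest in WT_UV, at 182, 344 and 188 CPM. Of 6 cytokine genes compared, 2 were at least 2-fold higher in WT_UV than in WT_Ctrl and 3 in RP_UV than in either other library, with none lower. The shares of all genes higher were 7.94% for WT_UV over WT_Ctrl, 6.35% for RP_UV over WT_UV and 11.6% for RP_UV over WT_Ctrl. In the same order 3.3%, 8.33% and 10.1% of all genes were lower.

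The RP_UV values of Il1b and Cxcl2 moved with the neutrophil genes. In the 14 RP_UV cells with UMIs of at least 2 neutrophil genes Il1b stood at 6007 CPM and Cxcl2 at 3282 CPM, and in the 21 other cells at 1635 and 1487 CPM. Without such cells Il1b was 453, 1356 and 1635 CPM in the 3 libraries, and Cxcl2 was 103, 953 and 1487 CPM. In both genes the step from WT_UV to RP_UV then lay under 2-fold, and the order of the 3 libraries was kept.

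Free RNA was looked for in T cells that held no Lyz2 UMI, which should make neither transcript. They numbered 227, 351 and 29, with a median of 2506, 5467 and 1855 UMIs, and were defined after the data had been seen. This choice favours T cells with little free RNA and few UMIs, against a median of 2736, 7672 and 3234 UMIs in all T cells. Their Il1b level was 2.92 CPM in WT_Ctrl, 162 in WT_UV and 712 in RP_UV, and monocyte-rule cells of RP_UV were 4.31-fold above it (3.19 to 5.96). Their Cxcl2 level was 8.76, 91.6 and 217 CPM, which the RP_UV monocyte-rule cells exceeded 9.59-fold. T cells as a whole, many of which held Lyz2, reached 3736 CPM of Il1b and 2375 CPM of Cxcl2 in RP_UV, above the monocyte-rule cells there. Thinned to 2000 UMIs, Il1b was detected in 29.5%, 56% and 74.2% of monocyte-rule cells and 12%, 21.1% and 51% of T cells (unthinned in monocyte-rule cells 37%, 75.2% and 80%).

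**Figure D3:**
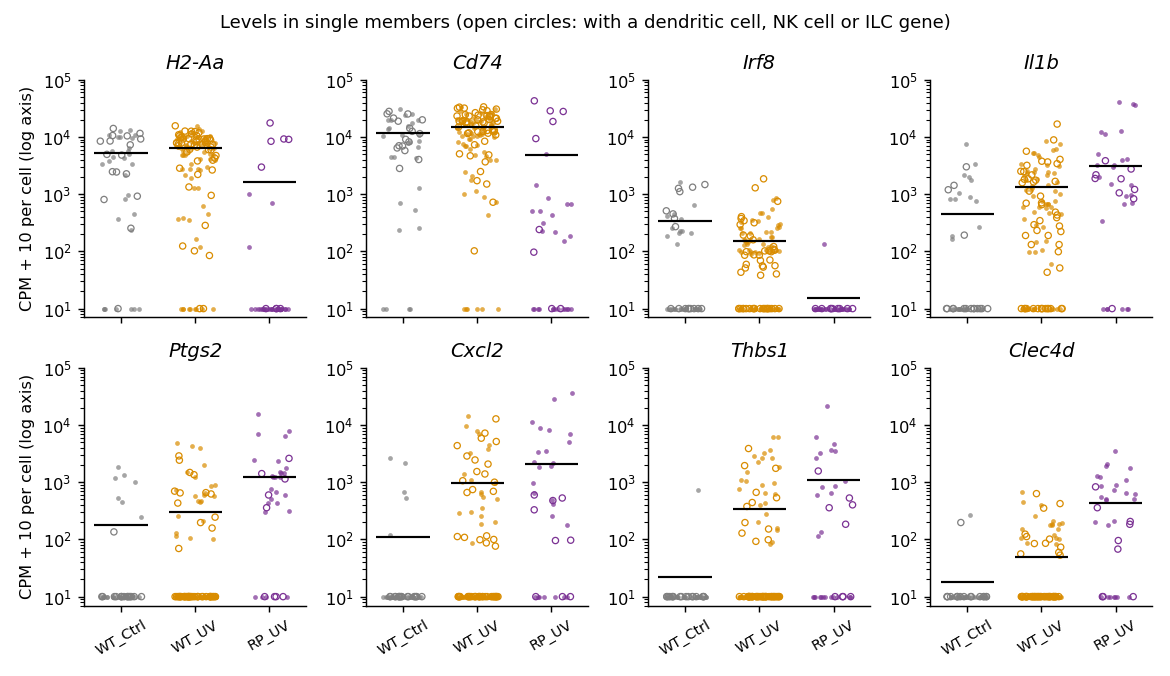
Level of selected genes in each monocyte-rule cell, as CPM plus 10 on a log axis, for WT_Ctrl (46 cells), WT_UV (117) and RP_UV (35), with open circles for cells that hold a dendritic cell, NK cell or innate lymphoid cell gene and black lines at the level over all cells of a library. The median cell of RP_UV has no H2-Aa UMI against 6473 CPM in WT_UV, while its median for Il1b is 1847 CPM against 593.

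Ptgs2, which encodes Cox-2 and is the gene of the RP transgene, stood at 169 CPM in WT_Ctrl, 286 in WT_UV and 1213 in RP_UV. It was detected in 8 of 46, 35 of 117 and 27 of 35 cells. The level in RP_UV was 4.24-fold over WT_UV (3.59 to 4.99) and 7.16-fold over WT_Ctrl (5.12 to 10.2), in the direction that the genotype label calls for. In WT_Ctrl 41.5% of its UMIs were in 1 cell, and without the cells holding neutrophil genes the levels were 171, 287 and 911 CPM. T cells without Lyz2 held 0, 40.3 and 325 CPM of Ptgs2, which RP_UV monocyte-rule cells exceeded 3.73-fold (2.39 to 6.15). All T cells of RP_UV held 685 CPM.

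Hpgd, which encodes the enzyme that breaks down prostaglandin E2, ran opposite to Ptgs2. It stood at 297, 119 and 10.5 CPM and was found in 28 of 46, 49 of 117 and 2 of 35 cells. Hpgd was 2.5 times lower in WT_UV than in WT_Ctrl (1.87 to 3.31) and 11.4 times lower in RP_UV than in WT_UV (3.1 to 94.7). The 2 other genes of the list that were compared and named stayed within 2-fold, Alox5ap, of the leukotriene pathway, at 1045, 847 and 1245 CPM and the prostaglandin E synthase gene Ptges3 at 128, 186 and 204 CPM. Of the 19 genes listed 4 were abundant enough to compare.

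Among targets of cyclic AMP, the messenger of several prostaglandin receptors, 4 were higher after UVB. Thbs1, the gene of the matrix protein thrombospondin-1 that is also listed as a classical monocyte gene, stood at 12.4, 323 and 1093 CPM in 1 of 46, 37 of 117 and 19 of 35 cells. It was 26.1-fold higher in WT_UV than in WT_Ctrl (8.87 to 127), where it had 3 UMIs, and 3.38-fold higher in RP_UV than in WT_UV (2.86 to 3.99). Crem stood at 12.4, 68.6 and 94.1 CPM and Nr4a2 at 53.7, 238 and 157 CPM. Of 7 genes compared 4 were at least 2-fold higher in WT_UV than in WT_Ctrl and none lower, beside 7.94% and 3.3% of all genes. But 1 was higher and 1 lower in RP_UV than in WT_UV, beside 6.35% and 8.33% of all genes. The medians were 1.69 and -0.45 on the log2 scale.

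The other classical monocyte genes differed in both directions. Hp, encoding haptoglobin, stood at 136, 56.7 and 267 CPM and was lowest in WT_UV. Mgst1 was lowest there too, at 202, 49 and 110 CPM. Of the 14 genes 1 was at least 2-fold higher and 4 lower in WT_UV than in WT_Ctrl, and 6 higher and 2 lower in RP_UV than in WT_UV, with medians of -0.13 and 0.29. The shares of all genes were 7.94% and 3.3% in the first contrast and 6.35% and 8.33% in the second. Of the non-classical, patrolling kind 3 genes were compared. Cx3cr1, the fractalkine receptor, stood at 178, 57.4 and 15.7 CPM, 3.09 times lower in WT_UV than in WT_Ctrl (2.09 to 4.53).

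Part of the macrophage maturation genes were higher in the irradiated libraries, in cells chosen to hold at most 2 C1q UMIs. Mrc1, the mannose receptor, stood at 194, 984 and 1130 CPM and was 5.07-fold higher in WT_UV than in WT_Ctrl (3.79 to 6.93). Pf4 stood at 20.7, 442 and 1386 CPM, and Maf, a transcription factor of tissue macrophages, at 37.2, 262 and 371 CPM. All T cells held 133, 314 and 2127 CPM of Pf4, above the monocyte-rule cells in WT_Ctrl and RP_UV. They held 190, 458 and 980 CPM of Mrc1. The part of free RNA in the levels of the monocyte-rule cells was not tested. Of 10 genes compared 4 were at least 2-fold higher in WT_UV than in WT_Ctrl and 5 in RP_UV than in WT_Ctrl, beside 7.94% and 11.6% of all genes, with none lower and medians of 0.68 and 1.21. For RP_UV over WT_UV 2 were higher, beside 6.35%, with a median of 0.23.

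Of the lipid handling genes, 5 of 9 were at least 2-fold higher in RP_UV than in WT_UV and 1 was lower, beside 6.35% and 8.33% of all genes, with a median of 1.05. Fabp5, a fatty acid carrier, stood at 49.6, 407 and 1428 CPM, 3.5-fold higher in RP_UV than in WT_UV (3.02 to 4.05). In WT_Ctrl and WT_UV T cells without Lyz2 held 99.3 and 437 CPM of Fabp5, as much as the monocyte-rule cells or more, and those of RP_UV held 325 CPM, so only the RP_UV level stood above that background. Spp1, encoding osteopontin, stood at 33.1, 41.3 and 397 CPM, 9.62-fold higher in RP_UV than in WT_UV (6.76 to 13.8), with 20.4, 48.8 and 15.5 CPM in T cells without Lyz2. Abca1, a cholesterol exporter, stood at 8.26, 57.4 and 120 CPM.

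Clec4d and Clec4e, C-type lectin receptors that sense microbes and dead cells, stood at 8.26, 39.9 and 429 CPM and at 20.7, 102 and 397 CPM. Clec4d was 10.7-fold higher in RP_UV than in WT_UV (7.57 to 15.3), and 296 CPM were left in RP_UV without the cells that held neutrophil genes. Cd14, a co-receptor for bacterial lipopolysaccharide, stood at 103, 242 and 612 CPM. Cybb, the catalytic subunit of the phagocyte oxidase, ran the other way at 1087, 487 and 199 CPM, 2.23 times lower in WT_UV than in WT_Ctrl (1.93 to 2.57). Of 13 phagocyte oxidase, Fc and pattern receptor genes compared 5 were at least 2-fold higher and 1 lower in RP_UV than in WT_UV, beside 6.35% and 8.33% of all genes.

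Trafficking genes differed in both directions. C5ar1, a receptor for complement C5a, stood at 8.26, 26.6 and 136 CPM, and Ccr1, a receptor for Ccl6 and Ccl9, at 28.9, 123 and 225 CPM. Itga4, an integrin subunit that holds monocytes to endothelium, stood at 297, 156 and 52.3 CPM and was 5.69 times lower in RP_UV than in WT_Ctrl (2.92 to 12.4). Of 13 genes compared 5 were at least 2-fold higher and 3 lower in RP_UV than in WT_Ctrl, beside 11.6% and 10.1% of all genes, with a median of 0.45.

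S100a8, a calcium-binding alarmin abundant in neutrophils, stood at 4.13, 1.4 and 560 CPM, from 1 UMI in WT_Ctrl and 2 in WT_UV. T cells without Lyz2 held 433 CPM in RP_UV, and the monocyte-rule cells were 1.29-fold over them (0.846 to 2.03). The RP_UV levels of these classes could not be told apart at this depth. In RP_UV 15 of 35 monocyte-rule cells held S100a8, and 13 of them held UMIs of at least 2 neutrophil genes. S100a8 is itself in that list. Of its UMIs there 69.2% lay in 5 cells, and their source was not tested. S100a11 and S100a10, of the same family, stood at 797, 1594 and 3085 CPM and at 1120, 1533 and 3038 CPM.

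NF-kB feedback, glycolysis and stress genes were compared as well. Nfkbia, the inhibitor that NF-kB itself induces, stood at 554, 1100 and 1909 CPM, but T cells without Lyz2 reached 1903 CPM in RP_UV. None of 9 NF-kB feedback genes passed 2-fold in either direction between RP_UV and WT_UV, beside 14.7% of all genes, and the median was -0.39. Hif1a, the hypoxia factor, stood at 66.1, 73.5 and 199 CPM, and 4 of 11 glycolysis and hypoxia genes were at least 2-fold higher in RP_UV than in WT_UV with none lower, beside 6.35% and 8.33% of all genes. Atf3 and Hspa1a, which cell dissociation is known to raise, stood at 855, 1128 and 345 CPM and at 673, 668 and 183 CPM, so both were lowest in RP_UV, although Atf3 in thinned cells had a log2 fold of 0.18 for RP_UV over WT_Ctrl. Of 12 genes of that list none was higher and 4 were lower by at least 2-fold in RP_UV than in WT_UV, beside the same shares.

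Alternative activation genes were mixed. Ear2, an eosinophil-associated ribonuclease, stood at 33.1, 202 and 62.8 CPM and was highest in WT_UV, with 34.7% of its UMIs there in 1 cell. The log2 fold of Ear2 for RP_UV over WT_UV turned to 0.70 in thinned cells and to 0.06 in cells with no C1q UMI. Il4ra, the receptor chain for interleukin-4 and interleukin-13, stood at 12.4, 62.3 and 126 CPM. Retnla stood at 112, 65.1 and 5.23 CPM, but 1 cell held 74.1% of its UMIs in WT_Ctrl and 87.1% in WT_UV. Of 6 genes compared 3 were at least 2-fold higher in WT_UV than in WT_Ctrl, beside 7.94% of all genes, and 1 was higher and 3 lower in RP_UV than in WT_UV, beside 6.35% and 8.33%. The median for RP_UV over WT_UV was -1.24, and 0.52 in thinned cells. Hal, the histidine-degrading enzyme, stood at 4.13, 1.4 and 26.1 CPM and was at or under 3 UMIs in both wild-type libraries.

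Cell cycle genes were few, with 5 compared, of which 2 were at least 2 times lower in WT_UV than in WT_Ctrl, 1 in RP_UV than in WT_UV and 3 in RP_UV than in WT_Ctrl, beside 3.3%, 8.33% and 10.1% of all genes. Birc5, a regulator of chromosome segregation, stood at 90.9, 43.4 and 26.1 CPM, and 1 cell held 63.6% of its UMIs in WT_Ctrl. Per1 was the circadian gene that could be compared, at 62, 65.1 and 68 CPM.

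**Figure D4:**
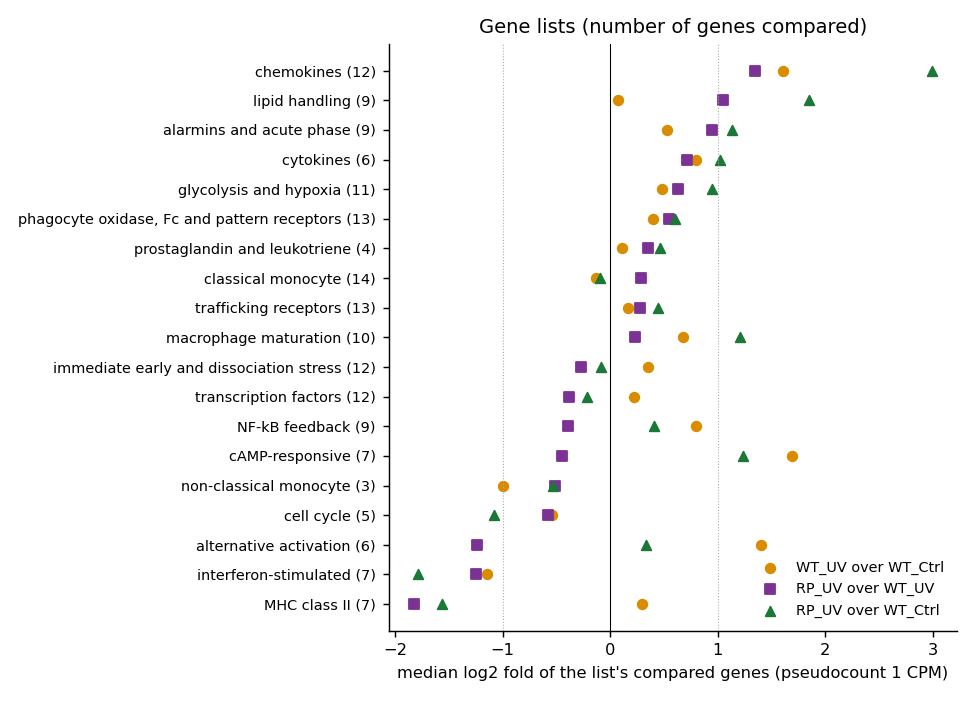
Median log2 fold (pseudocount 1 CPM) of the compared genes of each list in monocyte-rule cells, for WT_UV over WT_Ctrl, RP_UV over WT_UV and RP_UV over WT_Ctrl, which share libraries. Chemokines lie at 1.61 (0.64 with Ccl12 at its bound), 1.35 and 2.99 and MHC class II genes at 0.30, -1.82 and -1.56, while the median of all genes lies between 0.00 and 0.03.

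Over all 2821 genes with a mean of at least 50 CPM, 224 were at least 2-fold higher and 93 lower in WT_UV than in WT_Ctrl. In RP_UV 179 were higher and 235 lower than in WT_UV, and 326 were higher and 285 lower than in WT_Ctrl. Folds and counts of genes past 2-fold are ratios of CPM, and medians are on the log2(CPM + 1) scale, which understates the change of low genes. Each library enters more than 1 of these contrasts, so they are not independent of each other.

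Among the genes with the largest folds were several of no list. Ifitm1, an interferon-induced membrane protein, had no UMI in WT_Ctrl and stood at 105 CPM in WT_UV and 518 in RP_UV, at least 8.47-fold and 41.8-fold higher than the floor of WT_Ctrl. It was 4.93-fold higher in RP_UV than in WT_UV (3.79 to 6.4). Mmp19, a matrix metalloproteinase, had no UMI in WT_Ctrl and stood at 43.4 and 162 CPM. Bcl2a1d, of a family that blocks cell death and has near-identical copies, stood at 4.13, 102 and 193 CPM. Slc7a11, the cystine transporter, stood at 0, 31.5 and 167 CPM, but T cells without Lyz2 held 155 CPM in RP_UV.

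At the lower end, Cd7 stood at 112, 53.2 and 0 CPM and Ighm, the immunoglobulin heavy chain constant gene, at 331, 134 and 20.9 CPM. Rnase6, a secreted ribonuclease of myeloid cells, stood at 322, 125 and 26.1 CPM, 12.3 times lower in RP_UV than in WT_Ctrl (5.06 to 39). Smpdl3a, a phosphodiesterase, was lowest in WT_UV with 182, 46.9 and 94.1 CPM. March1, an ubiquitin ligase that removes class II molecules from the surface, stood at 82.6, 85.4 and 10.5 CPM, 8.17 times lower in RP_UV than in WT_UV (2.21 to 68.2). Ppfia4, Grk3 and Ramp1 stood at 5.23, 10.5 and 15.7 CPM in RP_UV, against 68.6, 73.5 and 98 CPM in WT_UV.

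A further set of large folds rested on few cells. Krt1, Krtdap, Krt5, Krt14, Krt15 and Krt17 are keratinocyte genes, Plvap, Aqp1 and Igfbp7 are known from endothelium and Sparc from fibroblasts. One cell held 92.9% of the Krt1 UMIs and 83.5% of the Krtdap UMIs of RP_UV, 57.3% of Sparc and 66.8% of Fabp4. Lrg1 had 52% of its RP_UV UMIs in 1 cell, and Ccl5 had all its WT_Ctrl UMIs in 1 cell. No fold is given for these genes. Cstdc5, of a protease inhibitor family with similar copies, stood at 0, 40.6 and 136 CPM.

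Macrophages, dendritic cells and the monocyte-rule cells were set side by side, each class defined by its own counts limits. There were 1691, 1869 and 2546 macrophages and 403, 391 and 62 dendritic cells in WT_Ctrl, WT_UV and RP_UV. H2-Aa in macrophages stood at 7803, 4770 and 1204 CPM, so it was lower in RP_UV there too, while in dendritic cells it stood at 15733, 10560 and 10836 CPM. In neutrophils H2-Aa stood at 8516, 5336 and 1148 CPM and in T cells at 4061, 4716 and 2737 CPM. Between RP_UV and WT_UV, H2-Aa was 3.89 times lower in monocyte-rule cells, 3.96 times lower in macrophages and 1.03-fold in dendritic cells. It was 4.65 times lower in neutrophils and 1.72 times lower in T cells. The neutrophil class held 978 CPM of Mrc1 and 685 CPM of Ccr2 in WT_UV, against 93 and 18.6 CPM in RP_UV. Its 13, 84 and 272 cells may therefore not be alike between libraries, which was not tested. Differences between classes were not tested.

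Il1b in macrophages stood at 115, 518 and 418 CPM, below the 438, 1346 and 3070 CPM of monocyte-rule cells in each library. RP_UV was 0.808-fold of WT_UV in macrophages (0.782 to 0.834) and 2.28-fold in monocyte-rule cells. In dendritic cells Il1b stood at 1568, 1308 and 4303 CPM, in neutrophils at 5340, 9394 and 23190 CPM and in T cells at 379, 849 and 3736 CPM. Without the cells that held neutrophil genes, the step from WT_UV to RP_UV in monocyte-rule cells lay under 2-fold. Thbs1 stood at 81.5 CPM in macrophages of WT_UV and 81.6 CPM in those of RP_UV, against 323 and 1093 CPM in monocyte-rule cells. Neutrophils held 349 and 1170 CPM of Thbs1 in the same libraries and dendritic cells 9.42 and 126 CPM, so the gene was also higher in RP_UV there. Irf8 in macrophages stood at 167, 115 and 74.4 CPM, 1.54 times lower in RP_UV than in WT_UV. In the same contrast it was 12.9 times lower in neutrophils, 3.69 times in T cells and 1.93 times in dendritic cells. The limit on the neutrophil class given above also holds for its Il1b, Thbs1, Irf8 and Ptgs2 values. Ptgs2 stood at 9.77, 97.4 and 211 CPM in macrophages and at 28, 101 and 639 CPM in dendritic cells, below the monocyte-rule cells of the same library. In neutrophils it stood above the monocyte-rule cells of each library, at 259, 1964 and 3830 CPM.

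**Figure D5:**
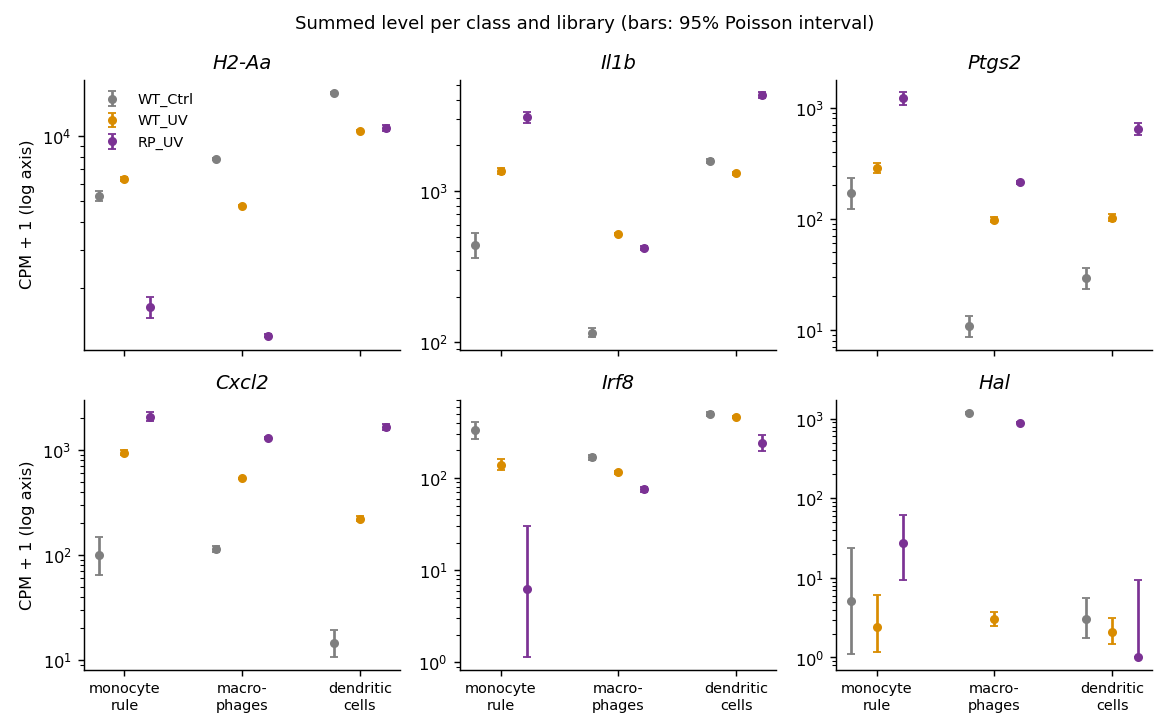
Summed level of selected genes, as CPM plus 1 on a log axis with 95% Poisson intervals, in monocyte-rule cells, macrophages and dendritic cells of WT_Ctrl, WT_UV and RP_UV. For Il1b, monocyte-rule cells of RP_UV stand at 3070 CPM above 1346 in WT_UV, and dendritic cells at 4303 above 1308 CPM, whereas macrophages stand at 418 and 518 CPM.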

How the data were processed

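Immune cells of mouse dorsal skin, enriched with CD45+ magnetic beads, were profiled by 10x single-cell 3′ RNA sequencing in 3 libraries, 1 per group. The matrices the authors deposited hold raw UMI counts, not normalized and limited to called cells, and per the file headers they came from Cell Ranger 6.1.1. The genome build was mm10 per the submitters' processing notes. Each matrix held 32285 genes. Symbols and identifiers were used as paired in the files, and 2 listed genes, Mx1 and Clec7a, were not analysed here. A few other genes are not reported here.

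A cell was retained if mitochondrial genes took less than 10% of its UMIs and if it had over 200 and under 4000 genes (under 6000 in WT_UV), the limits named in the methods of the study, and members were chosen on raw counts. Doublets were not removed. UMIs were summed over members per library and scaled to CPM, with exact 95% Poisson intervals. Ratios of CPM have exact conditional binomial intervals, shares exact Clopper-Pearson intervals and ratios of shares intervals from the log ratio. All cover counting error only, and with 1 library per group no test was run. Genes with a mean of at least 50 CPM over the 3 libraries were compared, without the genes of the definition, mitochondrial genes, Xist and Y-linked genes, and a 2-fold ratio in either direction was counted. A fold against a library at 0 was set against a floor of 3 counts. Medians of lists used a pseudocount of 1 CPM. For shares of cells with a UMI each cell was thinned to 2000 UMIs.

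Macrophages held at least 3 C1q UMIs and T cells at least 2 UMIs of Cd3e and Cd3d. Neutrophils held at least 3 UMIs of Csf3r, Cxcr2 and Retnlg together. Dendritic cells held UMIs of at least 2 of Flt3, Cd209a, Zbtb46, Ccl17, Ccr7, Xcr1 and Clec9a. The genes named were those of the definition with Ly6c1, the 10 highest and 10 lowest folds of each comparison without ribosomal and unnamed genes, up to 4 genes of each list with the largest ratio between libraries, and Ptgs2, Il1b, Tnf, Cxcl2, Ccl2, Cxcl1, Hal, H2-Aa, Retnla and Ear2. Cd74, Ccl6, Ccl7, Ccl9 and S100a10 among others were named after their values had been seen. The members and gene lists were chosen with earlier results of these data known. Alternatives left out the 5% of cells with the highest Scrublet scores and changed the cell filter, the definition, the denominator, the scaling, the filter on low values, the fold limit, the pseudocount and the thinning depth. Those without a C1q limit, without cells holding genes of skin cells or neutrophils, and without the highest cell of each gene were added after the data had been seen. The scripts were tested on simulated data. Promoter windows came from RefSeq tables of build GRCm38.p6. Python 3.11.15, numpy 2.4.6, scipy 1.17.1, pandas 2.3.3, scanpy 1.11.5 and matplotlib 3.10.9 were used.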

Additional observations from a re-analysis of the deposited data

Results flagged for a closer look

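Outside the cell filter, 3 of the 924 removed cells of WT_UV met the definition of monocyte-rule cells (0.325%, exact 95% interval 0.067 to 0.946), at the share of 0.325% that a count of 0 would allow. They were outside all values of the report except the alternative without a cell filter.

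For 4 genes the fold between libraries ran opposite in monocyte-rule cells and macrophages, with both counting intervals away from 1, and these differences between the classes were not tested. Ctla2a in WT_UV over WT_Ctrl was 0.0847-fold in monocyte-rule cells and 3.08-fold in macrophages, from 1 cell with UMIs in WT_Ctrl. Hp, the haptoglobin gene, was 0.416-fold in monocyte-rule cells and 7.71-fold in macrophages in the same contrast, from 2 UMIs in WT_Ctrl macrophages. Its macrophage levels were low, at 0.292 CPM in WT_Ctrl and 2.25 CPM in WT_UV. Itgal, an integrin subunit of leukocytes, was 0.493-fold and 2.22-fold. Birc5 was 0.478-fold in monocyte-rule cells and 3.02-fold in macrophages for WT_UV over WT_Ctrl, and 0.288-fold and 5.12-fold for RP_UV over WT_Ctrl, with 63.6% of its WT_Ctrl UMIs in 1 monocyte-rule cell.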

How the results depend on the processing

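The share of monocyte-rule cells was higher in WT_UV than in both other libraries under every alternative run, but the size of the ratio was not stable. WT_UV over WT_Ctrl was 1.84 with Ly6c2 required, 5.48 with no limit on C1q and 1.62 among cells with a Ptprc UMI. RP_UV over WT_UV was 0.396 with no limit on C1q, 0.57 with no limit and thinned cells, 0.157 without cells holding neutrophil genes and 0.412 among Ptprc cells. RP_UV over WT_Ctrl turned above 1 with no limit on C1q (2.17) and with no limit and thinned cells (1.82), and was 0.408 without neutrophil genes.

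Counts of genes past the fold, for WT_UV over WT_Ctrl, RP_UV over WT_UV and RP_UV over WT_Ctrl, were 764, 851 and 1077 in cells thinned to 2000 UMIs, 1569, 2017 and 2576 with a mean of at least 10 CPM, 6056, 7196 and 6015 without a filter, and 116, 147 and 249 at a fold of 3. For WT_UV over WT_Ctrl the count was 524 with at least 4 monocyte genes and 493 without cells holding dendritic cell, NK cell or innate lymphoid cell genes. For RP_UV over WT_UV it was 622 with Ly6c2 required and 242 with no limit on C1q, and for RP_UV over WT_Ctrl 392 when Chil3 and Ifitm6 were not used.

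The MHC class II median for RP_UV over WT_UV was -3.22 thinned, -5.32 with at least 4 monocyte genes, -5.26 with Ly6c2 required, -0.88 without Chil3 and Ifitm6, -1.40 with C1q at 0, -5.18 without dendritic and lymphoid genes, -2.24 with no limit on C1q and -2.39 without the highest cell of each gene. In the same order it was -2.99, -5.02, -5.21, -0.98, -1.11, -5.24, -2.05 and -2.02 for RP_UV over WT_Ctrl. It stayed below 0 in these contrasts under all alternatives run. For WT_UV over WT_Ctrl it was 0.40 thinned, 0.47 with at least 4 monocyte genes, -0.06 without Chil3 and Ifitm6, 0.05 without dendritic and lymphoid genes and 0.18 with no limit on C1q. The chemokine median for RP_UV over WT_UV was 0.88 thinned, 2.27 with Ly6c2 required, 1.63 with C1q at 0, 1.68 without dendritic and lymphoid genes and 1.03 without neutrophil genes, and for WT_UV over WT_Ctrl it was 3.16 with at least 4 monocyte genes. The interferon-stimulated median was -2.59 for RP_UV over WT_Ctrl thinned and -0.79 with no limit on C1q, and -0.55 for WT_UV over WT_Ctrl with C1q at 0. The thinned share of WT_UV cells with an Il1b UMI was 45.3% at 1000 UMIs.

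Log2 folds of named genes moved beyond counting error 728 times and stayed within it 3855 times, which can include turns of sign in less certain folds. A further 17 times a fold turned sign. Only folds of at least 2 in either direction with a counting interval away from 1 entered that count of 17. Genes with over 50% of their UMIs in 1 cell of the higher library did not enter it. Thinned cells gave Atf3 0.18 (RP_UV over WT_Ctrl), and Ctla2a -5.03, Cxcl1 -0.84 and Ear2 0.70 (RP_UV over WT_UV). At least 4 monocyte genes gave Cd7 4.34 and Stmn1 0.76, and the removal of dendritic and lymphoid genes Cd7 3.67 and Stmn1 0.09 (WT_UV over WT_Ctrl). Without Chil3 and Ifitm6, Egr1 was -0.42 (WT_UV over WT_Ctrl), Gbp2 0.16, Ifi27l2a 0.04 and Slc2a1 -0.24 (RP_UV over WT_UV) and Ifi27l2a 0.14 (RP_UV over WT_Ctrl). For RP_UV over WT_UV, C1q at 0 gave Ear2 0.06 and Slc2a1 -0.04, no limit on C1q gave Osm -0.19, and the removal of neutrophil genes gave S100a9 -3.36. Of list medians, alternative activation was 0.52 thinned and interferon-stimulated 0.00 with no limit on C1q and 0.07 without Chil3 and Ifitm6 (RP_UV over WT_UV), and cell cycle was 0.05 without dendritic and lymphoid genes, 0.11 with at least 4 monocyte genes and 0.17 as a mean over cells (RP_UV over WT_Ctrl). The causes were not tested.

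No paired analysis was possible because each group had 1 library, and for the same reason no replicate could be left out. With 35 to 117 cells per library, the level that 3 counts could show was 2.1 to 15.7 CPM, so low genes, RP_UV most of all, were limited by depth.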
